A study of Mus musculus with 12 samples.

Results

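Glycolysis and pentose phosphate genes were followed step by step across 12 arrays of mouse blood cells. The group was a list of 32 genes, from the glucose transporters to the lactate transporters, with the enzymes of the pentose phosphate branch. Each was found by its symbol in the array annotation, using only probe sets with 1 symbol, and was represented by its brightest probe set over the 12 arrays. Of the 32, 29 were found and 3 had no probe set under their symbol and were not analysed here. Of the 29, 27 lay above the level filter and were tested among 10583 genes. The other 2, Eno2 and Slc16a3, lay below it.

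The arrays formed 4 groups of 3, named here by their titles. Knockout plus and knockout minus arrays came from mice whose blood cells lacked Stat5a and Stat5b, the genes of 2 transcription factors of cytokine signalling. Control plus and control minus arrays came from mice that had both. The protocols call plus arrays treated with CMP and minus arrays treated without it, but most titles carry the letters CMP beside either sign, so plus and minus mean only the sign in the title. The labels used here give no meaning for CMP, no cell type, strain, sex or age, no way in which the genes were removed, and no word on separate animals, so p-values measure only the spread between these arrays, which may be technical. Titles were written in 3 forms, and arrays of one form are called a naming set here (A, B or C). Every set holds 1 array of every group. One array, the knockout minus array of set B, has a protocol that calls it a control and was grouped by its title.

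Signals are the authors' MAS5 intensities, a linear brightness per probe set. Stat5a gave signals of 28.9 to 90.1 in knockouts and 660 to 1436 in controls, and Stat5b 7.28 to 82.8 in knockouts and 1036 to 2177 in controls. All 12 arrays thus matched the genotype in their titles. The plus or minus sign was not checked by these signals. All 6 pan-leukocyte markers and all 7 stem and progenitor markers lay above the level filter in every array. RNA quality moved with the sign and with the set: the log2 ratio of the 3' to the 5' beta-actin control probe set was higher in the plus array of all 6 plus and minus pairs, at 0.50 to 5.78 in plus arrays against 0.25 to 4.73 in minus arrays, and set B alone lay above 4. Set B therefore stands apart.

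Glycolysis turns glucose into pyruvate and makes ATP and NADH without oxygen. Hexokinase traps glucose as glucose 6-phosphate, phosphofructokinase commits it to the pathway, and lactate dehydrogenase regenerates NAD by turning pyruvate into lactate, which monocarboxylate transporters carry out of the cell. The pentose phosphate branch leaves at glucose 6-phosphate and supplies NADPH and ribose 5-phosphate. Blood stem cells are known to lean on glycolysis, and dividing progenitors and activated white cells use both pathways for growth. HIF-1 and MYC are textbook activators of many glycolytic genes.

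The promoters of 6 members with 1 RefSeq start each, all called in both genotypes, were searched for the letters these activators are known to read. The sequences are from RefSeq with coordinates of GRCm38.p6, run 5' to 3' in the direction of the gene, and cover the 250 bases before its start. Capitals mark ACGTG on either strand, and likewise the motif GCGTG, the 2 forms of the hypoxia response element's core. CACGTG, the E-box of MYC, contains the core ACGTG. The windows are chr3:104638414-104638663 (forward strand) for Slc16a1, chr6:82774455-82774704 (reverse) for Hk2, chr19:41911621-41911870 (forward) for Pgam1 and chr10:78009808-78010057 (reverse) for Pfkl, with chr6:124814159-124814408 (reverse) for Tpi1 and chr13:6648772-6649021 (reverse) for Pfkp, the 1 of the 6 that was higher in plus arrays.
Slc16a1: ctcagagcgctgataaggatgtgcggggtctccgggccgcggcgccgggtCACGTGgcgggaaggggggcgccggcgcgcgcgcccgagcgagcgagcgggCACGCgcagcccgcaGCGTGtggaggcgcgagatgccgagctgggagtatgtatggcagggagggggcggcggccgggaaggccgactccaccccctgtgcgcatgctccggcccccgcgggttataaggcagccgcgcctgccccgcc
Hk2: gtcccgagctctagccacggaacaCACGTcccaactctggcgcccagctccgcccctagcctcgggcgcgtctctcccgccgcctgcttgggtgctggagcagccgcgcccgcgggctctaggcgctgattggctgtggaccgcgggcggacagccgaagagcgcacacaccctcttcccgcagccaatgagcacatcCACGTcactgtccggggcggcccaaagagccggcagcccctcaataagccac
Pgam1: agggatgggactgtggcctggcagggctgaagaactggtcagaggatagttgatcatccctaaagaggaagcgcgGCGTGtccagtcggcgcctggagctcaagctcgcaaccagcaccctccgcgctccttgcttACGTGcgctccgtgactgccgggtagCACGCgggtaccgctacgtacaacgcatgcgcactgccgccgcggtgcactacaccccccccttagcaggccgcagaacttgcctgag
Pfkl: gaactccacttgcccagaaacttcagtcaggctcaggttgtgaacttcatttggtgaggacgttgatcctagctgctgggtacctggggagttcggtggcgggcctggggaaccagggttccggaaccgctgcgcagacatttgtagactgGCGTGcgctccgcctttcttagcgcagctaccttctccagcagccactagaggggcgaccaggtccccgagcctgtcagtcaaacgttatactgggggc
Tpi1: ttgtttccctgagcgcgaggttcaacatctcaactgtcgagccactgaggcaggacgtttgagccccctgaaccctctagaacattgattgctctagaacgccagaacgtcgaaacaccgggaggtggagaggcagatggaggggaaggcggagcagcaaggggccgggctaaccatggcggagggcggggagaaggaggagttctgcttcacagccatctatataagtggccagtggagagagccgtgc
Pfkp: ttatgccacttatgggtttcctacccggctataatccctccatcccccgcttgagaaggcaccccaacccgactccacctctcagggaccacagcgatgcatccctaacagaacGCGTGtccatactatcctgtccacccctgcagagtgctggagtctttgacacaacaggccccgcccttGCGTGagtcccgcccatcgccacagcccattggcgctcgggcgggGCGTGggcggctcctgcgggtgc

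Of the 29 genes found, 28 had a RefSeq window of 250 bases before to 50 after the start. ACGTG was in the window of 15 of the 28 (53.6%), against 26.1% of the 14453 array genes with a window, and GCGTG in 19 (67.9%), against 47.8%. At least 1 of the 2 cores was in 25 (89.3%), against 59.3%. Of the 7 members that were lower in plus arrays of both genotypes, 6 held a core and Tpi1 held none. That share is near the 25 of 28 among all members, so a core does not set the lower members apart. Pfkp, higher in plus arrays, held GCGTG. The E-box CACGTG was in 4 members (14.3%), against 10.2%. They were Slc16a1, Ldha and Pfkm, with Pfkfb3, which was not called in either genotype. The STAT5-type TTCNNNGAA was in 2 members (7.14%), against 8.57%. Matches are letters on both strands, not sites shown to be bound, and windows were not matched for base composition.

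Most glycolytic genes that differed between plus and minus arrays were lower in plus arrays, in knockouts and in controls. In knockouts 7 of 27 members were lower and 2 higher (33.3% called), where 18.8% of all 10583 genes were called, 9.72% lower and 9.03% higher. In controls 10 were lower and 1 higher (40.7%), where 22.1% of all genes were called, 11.6% lower and 10.6% higher. At an unadjusted p under 0.05 in limma, 13 of 27 members passed in knockouts, against 33.9% of all genes. In controls 14 of 27 passed, against 36.4% of all genes. The lower members of both genotypes were Slc16a1, Tpi1, Pfkl, Hk2, Ldha, Pfkm and Pgam1, and Pfkp was higher in both. Pgd was called only among knockouts, and Pdk1, Rpia and Hk3 only among controls, but none of these differences between genotypes passed a test of its own. The 8 shared calls are 88.9% of the knockout calls and 72.7% of the control calls, and 0 members were called in opposite directions.

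The median log2 difference of the 27 members, plus minus minus, was -0.35 in knockouts and -0.32 in controls, against -0.06 and -0.02 over all genes tested. Within sets A, B and C it was -0.30, -0.38 and -0.19 in knockouts and -0.25, -0.38 and -0.30 in controls. In all 6 pairs of a plus and a minus array, 11 tested members were lower (40.7%, against 20.3% of all genes) and 1 was higher (3.7%, against 16.6%). Plus and minus arrays did not overlap for 6 of 27 members in knockouts, a share near the 23.6% of all genes. In controls they did not overlap for 11 of 27 members, against 25.1% of all genes. Calls are from limma with Benjamini-Hochberg adjustment over all genes at 0.05, with the set as a block. Without that block, 3 members were called in knockouts and 4 in controls, all lower, where 2.82% and 4.44% of all genes were called. Leaving out set A left 4 and 5 calls, where 6.42% and 9.97% of all genes were called. Leaving out set C left 3 and 6 (all genes 3.36% and 5.4%), and leaving out set B left 13 and 12 (all genes 25% and 29%).

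**Figure D1:**
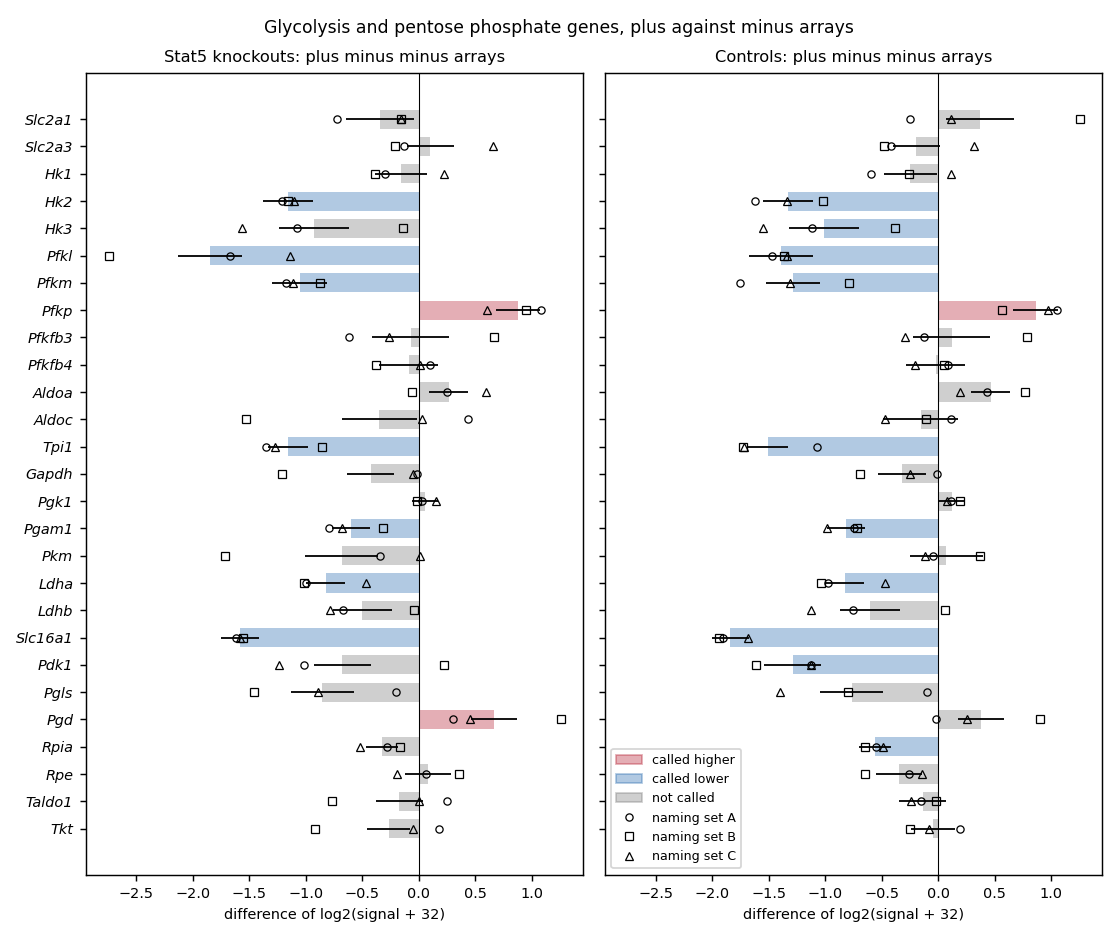
Difference of log2(signal + 32), plus minus minus arrays, for the 27 tested members from glucose uptake (top) to the pentose phosphate branch (bottom), in Stat5 knockouts (left) and controls (right). Bars are the fitted differences, lines their standard errors (3 arrays per group), and points the difference within each naming set. Bars for Slc16a1, Tpi1, Pfkl, Hk2, Ldha, Pfkm and Pgam1 point to lower values in both panels and the bar of Pfkp to higher ones.

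By role, the 17 tested genes from uptake to pyruvate gave 5 lower and 1 higher in knockouts (35.3% called, against 18.8% of all genes). In controls they gave 6 lower and 1 higher (41.2%, against 22.1%). The 4 of lactate and pyruvate handling, a small number, gave 2 lower in knockouts (50%) and 3 lower in controls (75%), with 0 higher. The 6 of the pentose phosphate branch gave 1 higher and 0 lower in knockouts and 0 higher and 1 lower in controls, 16.7% in each genotype, near the share of all genes.

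The glucose transporters did not pass the test. Slc2a1, the basal transporter GLUT1, had signals of 230.0, 1151 and 496 in knockout plus arrays of sets A, B and C, against 402, 1288 and 557 in knockout minus arrays. In controls they were 221, 2621 and 508 in plus arrays, against 269, 1082 and 466 in minus arrays. Set B was the brightest in each group, and the groups overlapped. Its log2 difference was -0.35 ± 0.30 in knockouts and 0.37 ± 0.30 in controls (SE, 3 arrays a group; adjusted p from limma = 0.447 and 0.404). Slc2a3, the high-affinity transporter GLUT3, stood at 0.10 ± 0.21 in knockouts and -0.19 ± 0.21 in controls (adjusted p = 0.768 and 0.553).

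Among the hexokinases, Hk2 was lower in plus arrays and Hk1 was not called. Hk2, the inducible isozyme bound to mitochondria (chromosome 6, 82725025 to 82774454), had signals of 779, 884 and 629.5 in knockout plus arrays, against 1849, 2012 and 1387 in knockout minus arrays. In controls it had 471, 777 and 706 in plus arrays, against 1518, 1606 and 1832 in minus arrays. All 6 plus arrays lay below all 6 minus arrays. Hk2 differed by -1.16 ± 0.22 on the log2 scale in knockouts (adjusted p = 0.00511) and -1.33 ± 0.22 in controls (adjusted p = 0.00202). In knockouts the adjusted p was 0.0519 without set A and 0.0696 without set C. Hk3, an isozyme of myeloid cells, averaged 1919 ± 1095 in knockout plus arrays and 3311 ± 496 in knockout minus arrays, and 1343 ± 539 in control plus arrays and 2636 ± 404 in control minus arrays (SD, n = 3). It passed in controls (-1.01 ± 0.31, adjusted p = 0.0365) and just missed in knockouts (-0.93 ± 0.31, adjusted p = 0.0557), with its smallest difference in set B of both genotypes. Its call in controls was lost in 11 of 28 alternatives, with an adjusted p of 0.0549 to 0.19 when any 1 of 6 arrays was left out, namely knockout minus C, the control plus arrays of A, B and C and the control minus arrays of A and C. A dimmer Hk3 probe set was lower in both genotypes, at -1.67 ± 0.24 and -1.07 ± 0.24. Hk1 stood at -0.16 ± 0.23 and -0.25 ± 0.23.

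The 3 phosphofructokinase subunits, whose enzyme is the committing step, did not move together. Pfkl (liver type) and Pfkm (muscle type) were lower in plus arrays and Pfkp (platelet type) was higher, in knockouts and in controls.

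Pfkl (chromosome 10, 77986947 to 78009807) had signals of 1651, 258 and 2144 in knockout plus arrays, against 5318, 1917 and 4761 in knockout minus arrays. Its signals in controls were 1798, 677 and 1739 in plus arrays, against 5043, 1795 and 4432 in minus arrays. The plus array was lower in every set, and the groups overlapped because set B was dimmer throughout. On the log2 scale Pfkl differed by -1.85 ± 0.28 in knockouts (adjusted p = 0.00143) and -1.39 ± 0.28 in controls (adjusted p = 0.00547). Of 2 dimmer Pfkl probe sets, 1 was called lower in both genotypes, at -1.47 ± 0.28 in knockouts and -1.23 ± 0.28 in controls. The dimmest was called in neither, at -0.99 ± 0.33 and -0.42 ± 0.33. The sets ranged from -2.75 (B) to -1.14 (C) in knockouts. With the beta-actin ratio in the model the difference was -1.30 in knockouts (adjusted p = 0.0684) and -0.88 in controls (adjusted p = 0.13), and without set A the adjusted p in controls was 0.0600.

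Pfkm (chromosome 15, 98092589 to 98132447) had signals of 539.7, 251 and 599 in knockout plus arrays, against 1261, 487 and 1332 in knockout minus arrays. For controls the values were 407, 399 and 601 in plus arrays, against 1449, 714 and 1536 in minus arrays. Each plus array was below its minus partner, and the control groups did not overlap. In log2 units Pfkm differed by -1.06 ± 0.24 in knockouts (adjusted p = 0.0122) and -1.28 ± 0.24 in controls (adjusted p = 0.00368). In knockouts the adjusted p was 0.0603 without the minus array of set A, 0.0624 without that of set C, 0.0931 without set A and 0.164 without set C. In controls it was 0.0687 without set A and 0.0837 without set C. With the beta-actin ratio in the model Pfkm stood at -0.64 in knockouts (adjusted p = 0.283) and -0.91 in controls (0.0832).

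Pfkp (chromosome 13, 6579874 to 6649060) ran the other way, with signals of 2998, 1603 and 2356 in knockout plus arrays, against 1403, 814 and 1544 in knockout minus arrays. In controls its signals were 2447, 1625 and 2961 in plus arrays, against 1164, 1088 and 1488 in minus arrays. Every plus array exceeded every minus array. Its log2 difference was 0.88 ± 0.20 in knockouts (adjusted p = 0.0112) and 0.86 ± 0.20 in controls (adjusted p = 0.00959). The call in knockouts was lost without the plus array of set A (adjusted p = 0.0559), the minus array of set B (0.0529), set A (0.108) or set C (0.105), and in controls without the plus array of set C (0.0512), the minus array of set A (0.0555), set A (0.0987) or set C (0.158). A dimmer Pfkp probe set stood at 0.92 ± 0.41 and 0.94 ± 0.41 and was not called, and with the probe sets of the gene averaged the call was lost in both genotypes (0.61, adjusted p = 0.112, and 0.63, adjusted p = 0.0941). Pfkfb3 and Pfkfb4, which make or remove the activator fructose 2,6-bisphosphate, stood between -0.09 and 0.12 in both genotypes and were not called.

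**Figure D2:**
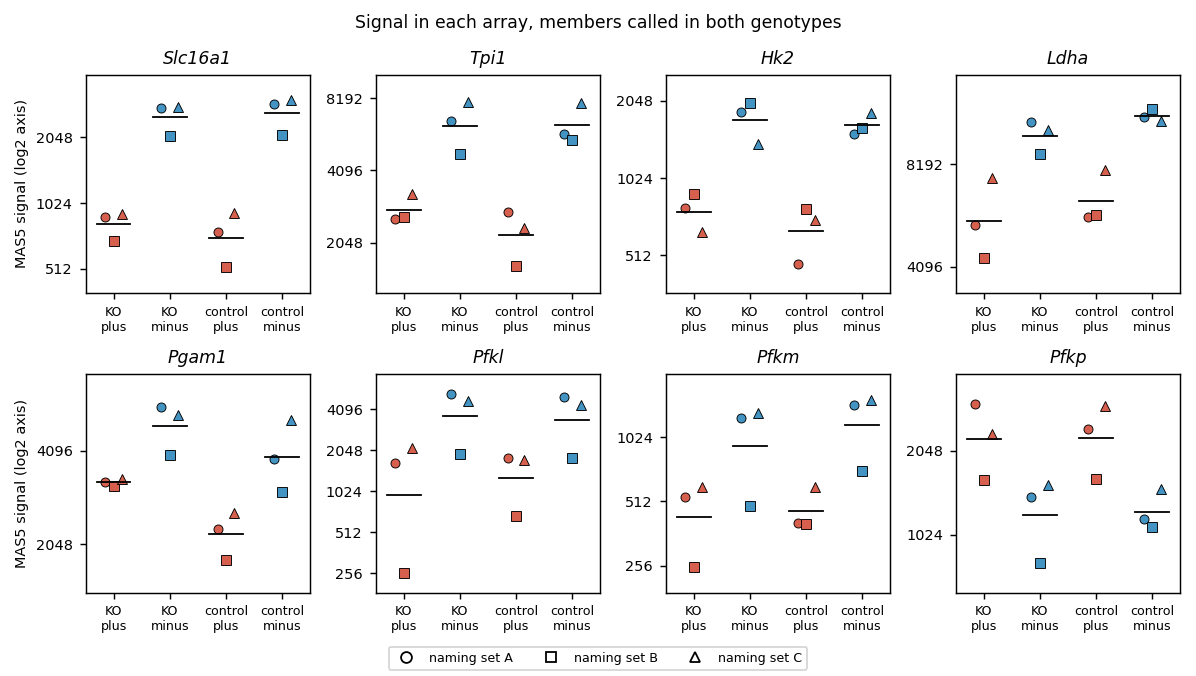
MAS5 signal (log2 axis) of the 8 members called in both genotypes, by array, with plus arrays in red and minus arrays in blue and 1 marker shape per naming set. Lines are geometric means of 3 arrays. Slc16a1, Tpi1, Hk2 and Ldha lie lower in all 6 plus arrays than in all 6 minus arrays, and Pfkp lies higher.

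In the middle of the pathway, Tpi1 was the member with the clearest difference, while aldolase and phosphoglycerate kinase were not called. Tpi1, triosephosphate isomerase (chromosome 6, 124810586 to 124814158), had signals of 2567, 2622 and 3267 in knockout plus arrays, against 6609.7, 4780.2 and 7928 in knockout minus arrays. In controls it had 2759, 1642 and 2368 in plus arrays, against 5840.2, 5512 and 7855 in minus arrays. No plus array reached a minus array. The log2 difference was -1.16 ± 0.18 in knockouts (adjusted p = 0.00141) and -1.51 ± 0.18 in controls (adjusted p = 0.000284). Both other Tpi1 probe sets were lower too, at -1.20 and -0.92 in knockouts and -1.49 and -1.35 in controls, and the knockout call was lost without set C (adjusted p = 0.0625).

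Aldoa, the main aldolase, averaged 8247 ± 1184 in knockout plus arrays and 6853 ± 757 in knockout minus arrays, and 9154 ± 2354 in control plus arrays and 6492 ± 477 in control minus arrays (SD, n = 3). Its log2 difference of 0.26 ± 0.17 in knockouts and 0.47 ± 0.17 in controls did not pass (adjusted p = 0.311 and 0.0727). Of 4 other Aldoa probe sets, 1 was called higher in controls (0.60 ± 0.14, adjusted p = 0.0119) and 0 in knockouts. Pgk1, which makes the first ATP of the pathway, stood at 0.05 ± 0.12 in knockouts and 0.13 ± 0.12 in controls, with 95% intervals of -0.20 to 0.30 and -0.12 to 0.38. Aldoc, the brain-type aldolase, was dim at 29.8 to 195 and was not called.

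Pgam1, phosphoglycerate mutase (chromosome 19, 41911871 to 41918665), was lower in plus arrays by less. It had signals of 3246, 3162 and 3323 in knockout plus arrays, against 5672, 3955 and 5334 in knockout minus arrays. Control signals were 2289, 1819.8 and 2592 in plus arrays, against 3859, 3015 and 5139 in minus arrays. Within each genotype the groups did not overlap, and each knockout array was brighter than the control array of its sign and set. Its log2 difference was -0.60 ± 0.17 in knockouts (adjusted p = 0.0283) and -0.81 ± 0.17 in controls (adjusted p = 0.00571). The knockout call was lost when any of 5 knockout arrays was left out, all but the plus array of set B (adjusted p = 0.0655 to 0.124), without set A (0.242) and without set C (0.248), and the control call without set A (0.0601) and without set C (0.133). Pkm, pyruvate kinase, stood at -0.68 ± 0.32 in knockouts and 0.07 ± 0.32 in controls and was not called. The neuronal enolase Eno2, below the filter, had signals of 33.6 to 184 in knockout plus arrays and 19.8 to 29.7 in knockout minus arrays, and 23.2 to 126 in control plus arrays and 2.70 to 39.3 in control minus arrays.

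Gapdh is measured by 3 control probe sets at different positions of its transcript, and their differences between plus and minus arrays were larger toward the 5' end. The 3' probe set, the brightest and so the one that represents Gapdh, had signals of 12728, 9305 and 11479 in knockout plus arrays, against 12892, 21566 and 11916 in knockout minus arrays. In controls it had 12940.3, 11075 and 10799.5 in plus arrays, against 13069, 17939 and 12828 in minus arrays. It was not called, at -0.43 ± 0.21 in knockouts and -0.32 ± 0.21 in controls. In the fit over all probe sets the middle one stood at -1.24 ± 0.37 in knockouts (adjusted p = 0.0434) and -0.60 ± 0.37 in controls (0.276). The 5' one stood at -1.75 ± 0.39 in knockouts (0.0132) and -1.26 ± 0.39 in controls (0.0423).

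The size of a difference at 1 probe set of this gene thus varied with its position. With the beta-actin ratio in the model, 3 members were called in knockouts (Tpi1, Slc16a1 and Pgls) and 6 in controls (Hk2, Tpi1, Pgam1, Slc16a1, Pdk1 and Pgls), all lower, where 6.14% and 14.4% of all genes were called. The part of RNA quality in the other members' differences was not tested further.

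**Figure D3:**
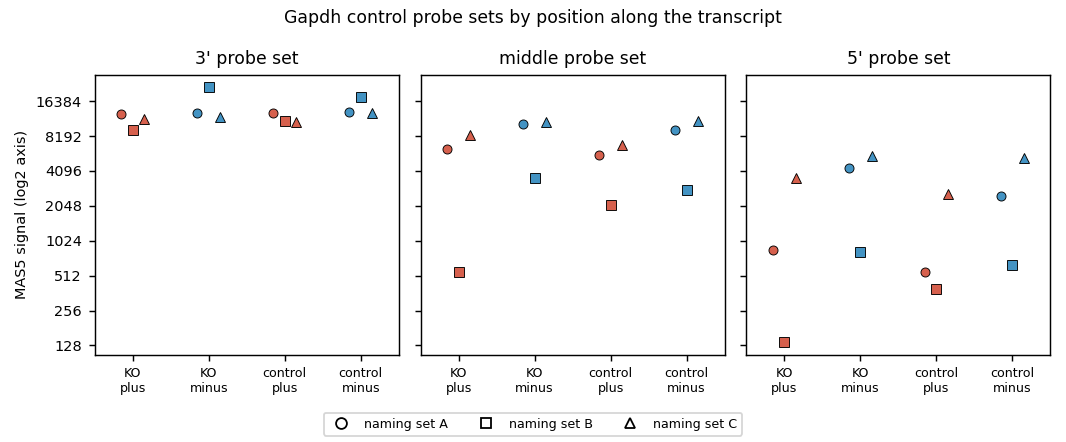
MAS5 signal (log2 axis) of the 3', middle and 5' Gapdh control probe sets in each array, by group, with 1 marker shape per naming set. In the 3' panel the arrays lie between 9305 and 21566, and in the 5' panel between 137 and 5543, with set B lowest in every group.

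Lactate handling held the member with the smallest p of all, Slc16a1. It encodes MCT1, a lactate and pyruvate transporter (chromosome 3, 104638664 to 104658462). Its signals were 888, 686 and 913 in knockout plus arrays, against 2787, 2081 and 2803 in knockout minus arrays. Control arrays had 751, 521 and 921 in plus arrays, against 2893, 2084 and 3019 in minus arrays. The dimmest minus array was above the brightest plus array by a wide gap, and the difference was alike in the 3 sets, at -1.62, -1.56 and -1.59 in knockouts and -1.90, -1.94 and -1.68 in controls. Slc16a1 differed by -1.59 (log2) ± 0.17 in knockouts (adjusted p = 0.000175) and -1.84 ± 0.17 in controls (adjusted p = 6.51e-05). It passed under all 28 alternatives in both genotypes. Its size was -1.15 and -1.04 when averaged with a second probe set that lay below the filter.

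Ldha, the lactate dehydrogenase subunit that favours lactate (chromosome 7, 46842274 to 46855627), had signals of 5436, 4333 and 7454 in knockout plus arrays, against 10883, 8785 and 10309 in knockout minus arrays. Among controls they were 5747, 5799 and 7909 in plus arrays, against 11304, 11923 and 10987 in minus arrays. Plus and minus arrays did not overlap. The log2 difference was -0.83 ± 0.17 in both genotypes (adjusted p = 0.00743 in knockouts and 0.0059 in controls). It was -0.42 in knockouts (adjusted p = 0.264) and -0.45 in controls (0.155) with the beta-actin ratio in the model, and without set A the adjusted p was 0.0986 in knockouts and 0.0822 in controls. Ldhb, the heart-type subunit, stood at -0.50 ± 0.26 and -0.61 ± 0.26 and was not called.

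Pdk1, the kinase that shuts pyruvate dehydrogenase (chromosome 2, 71873215 to 71903858), had signals of 1602, 2382 and 1378 in knockout plus arrays, against 3267, 2043 and 3297 in knockout minus arrays. In controls they were 1322, 952 and 1272 in plus arrays, against 2916, 2983 and 2816 in minus arrays. The knockout plus array of set B alone was brighter than its minus partner. The log2 difference passed in controls (-1.29 ± 0.25, adjusted p = 0.00442) and not in knockouts (-0.68 ± 0.25, adjusted p = 0.0799). Of the 3 other Pdk1 probe sets, 2 were called lower in both genotypes, at -1.03 and -0.82 in knockouts and -1.51 and -1.04 in controls. Slc16a3, the lactate exporter MCT4, lay below the filter at 10.9 to 105.

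In the pentose phosphate branch, Pgd was higher in plus arrays of knockouts, Rpia was lower in plus arrays of controls and Pgls just missed the threshold in both genotypes. Pgd, which makes the second NADPH of the oxidative arm, averaged 17442 ± 8827 in knockout plus arrays and 10188 ± 1331 in knockout minus arrays (SD, n = 3), and 14682 ± 7268 in control plus arrays and 10489 ± 1895 in control minus arrays. It was called higher in knockouts (0.67 ± 0.20, adjusted p = 0.0398) and not in controls (0.38 ± 0.20, adjusted p = 0.199). Set B carried most of it, with differences of 0.30, 1.25 and 0.45 in sets A, B and C of the knockouts.

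The call of Pgd was lost in 17 of 28 alternatives. Its value fell to 0.47 without the plus array (adjusted p = 0.127) or the minus array (0.185) of set B, and the adjusted p was 0.0569 without the knockout plus array of set A, 0.103 without the knockout minus array of set C, 0.0537 to 0.0589 without the control plus array of C or the control minus array of A or C, 0.0694 without set A and 0.165 without set C. Without the whole of set B it was still called, at 0.37. All 4 Pgd probe sets leaned higher in knockouts, and the brightest one not of the type that can bind related transcripts stood at 0.22 ± 0.34.

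Rpia, the isomerase that yields ribose 5-phosphate (chromosome 6, 70765720 to 70792175), was lower in plus arrays of controls. Its signals were 3423, 4455 and 2535 in knockout plus arrays, against 4167, 5013 and 3652 in knockout minus arrays, and 3345, 4146 and 3008 in control plus arrays, against 4905, 6529 and 4223 in control minus arrays. The plus array was dimmer in each set. The log2 difference was -0.56 ± 0.14 in controls (adjusted p = 0.0159) and -0.32 ± 0.14 in knockouts (adjusted p = 0.132). Its call in controls was lost without the minus array of set B (0.067) or C (0.0646), set A (0.145) or set C (0.175). Pgls, the lactonase, stood at -0.85 ± 0.28 in knockouts and -0.76 ± 0.28 in controls (adjusted p = 0.0516 and 0.0691). It was lower in the plus array of all 6 pairs. Rpe (0.08 and -0.35), Taldo1 (-0.17 and -0.14) and Tkt (-0.27 and -0.05), the epimerase, transaldolase and transketolase of the reversible arm, were not called.

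Knockouts and controls did not differ in any member beyond the test, with plus or with minus arrays. Among minus arrays 0 of 27 members were called (0.0189% of all genes, 2 genes, both lower) and 1 had an unadjusted p under 0.05, against 2.36% of all genes. Among plus arrays 0 were called (0.0189% of all genes) and 3 had an unadjusted p under 0.05 (11.1%), against 9.81% of all genes. Median differences of the members, knockout minus control, were -0.08 in plus arrays and -0.03 in minus arrays, against -0.04 and -0.01 over all genes, and that of plus arrays turned to 0.12 with arrays centred on their medians, where the median of all genes was 0.15. Within sets A, B and C the median in plus arrays was 0.03, -0.27 and 0.09, so set B alone made it negative, and it was 0.11 without set B. The 95% interval lay within 1 log2 unit, a 2-fold change, for 22 of 27 members in plus arrays and 24 in minus arrays, so smaller differences than that are not settled by these arrays.

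In plus arrays the smallest p belonged to Pgam1, whose signals of 3246, 3162 and 3323 in knockouts lay above the 2289, 1819.8 and 2592 of controls (0.55 ± 0.17, unadjusted p = 0.00691, adjusted p = 0.507). In minus arrays its signals overlapped, at 0.33 ± 0.17 (adjusted p = 1). Rpe had 923, 738 and 872 in knockout plus arrays, against 739.5, 361 and 759 in control plus arrays (0.49 ± 0.20, adjusted p = 0.507). These groups overlapped slightly. Pdk1 stood at 0.56 ± 0.25 (adjusted p = 0.507) and Tpi1 at 0.34 ± 0.18 (0.511), with set B the largest in both, at 1.29 and 0.66.

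Hk1, the housekeeping hexokinase, had 2404, 3395 and 3162 in knockout plus arrays, against 2603, 7117 and 3525 in control plus arrays (-0.44 ± 0.23, adjusted p = 0.511). In minus arrays it had 2969, 4455 and 2715 in knockouts, against 3937, 8528 and 3254 in controls (-0.53 ± 0.23, unadjusted p = 0.0404, adjusted p = 1). The knockout was the dimmer in every set of both comparisons, and the groups overlapped. Slc2a3 had 3732, 4199 and 3869.8 in knockout minus arrays, against 5039, 6105 and 4518 in control minus arrays (-0.40 ± 0.21, adjusted p = 1). Those groups did not overlap. The same held for 2 of 27 members among plus arrays, Pgam1 and Pdk1, against 5.66% of all genes. Among minus arrays it held for 2 of 27, Slc2a3 and Ldha, against 4.32% of all genes. Rpia (-0.27 ± 0.14) and Pfkm (-0.31 ± 0.24) in minus arrays were also among the 5 smallest p of that comparison.

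**Figure D4:**
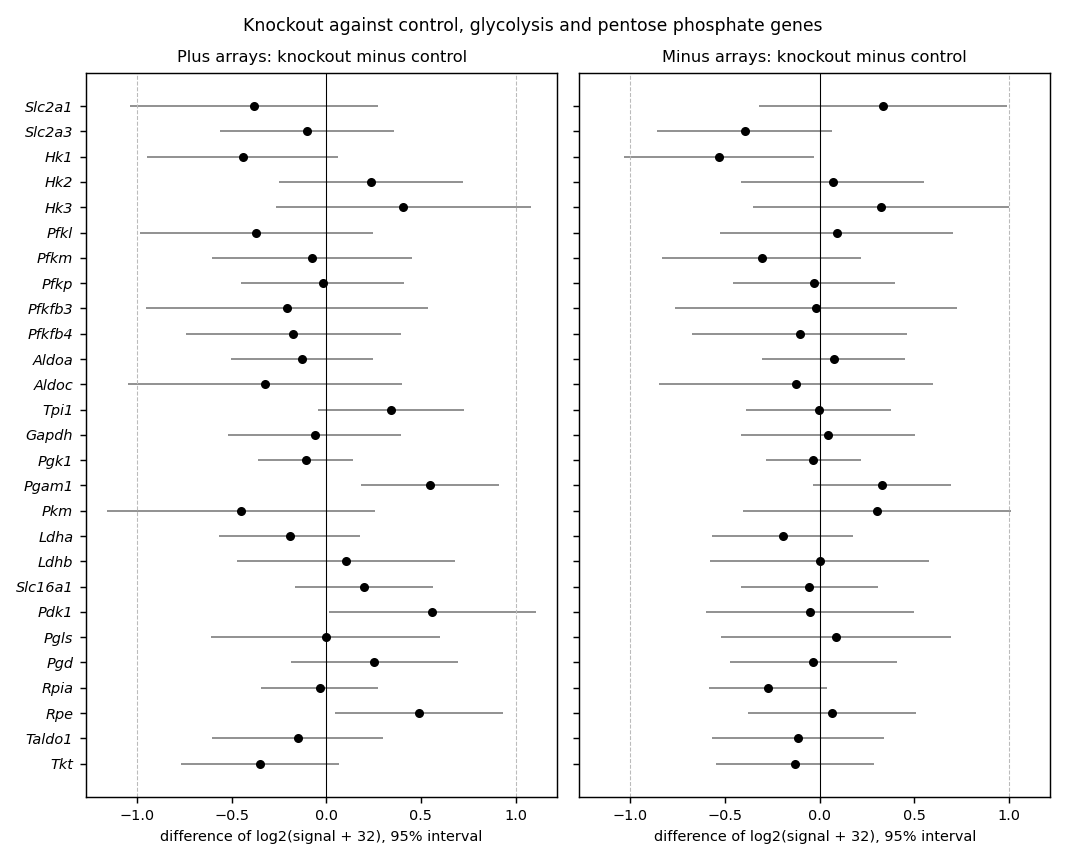
Difference of log2(signal + 32), knockout minus control, for the 27 tested members in plus arrays (left) and minus arrays (right). Points are fitted values and lines 95% intervals, with dashed lines at a 2-fold change. None of the 27 passed the adjusted test in either panel, and 24 intervals in minus arrays and 22 in plus arrays lie within the dashed lines.

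The difference between plus and minus arrays was also compared between genotypes. The interaction, knockout difference minus control difference, was called for 0 of 27 members and 0 of 10583 genes (0% in limma), with 0 members and 2.11% of genes at an unadjusted p under 0.05. The members' median was 0.01. The smallest p values were those of Pdk1 (0.61 ± 0.36, unadjusted p = 0.111), Slc2a1 (-0.72 ± 0.43, unadjusted p = 0.117) and Pkm (-0.75 ± 0.46, unadjusted p = 0.126), each with adjusted p = 0.954. All 3 were largest in set B, at 1.83, -1.41 and -2.09, against -0.11 to 0.11, -0.47 to -0.27 and -0.30 to 0.13 in sets A and C. Pkm had signals of 4243, 1003 and 6383 in knockout plus arrays, against 5393, 3373 and 6337 in knockout minus arrays, and 3563, 3439 and 5766 in control plus arrays, against 3671, 2644 and 6270.2 in control minus arrays. The low knockout plus array of set B is the one with the highest beta-actin ratio.

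Other genes of sugar metabolism, a list of 36 with 22 tested, also held more lower than higher calls. In knockouts 7 were lower and 3 higher (45.5% called, against 18.8% of all genes), and in controls 8 lower and 3 higher (50.0%, against 22.1%), with medians of -0.50 and -0.55. Prps2 and Prps1, which turn ribose 5-phosphate into the nucleotide precursor PRPP, were lower at -1.52 ± 0.18 and -1.17 ± 0.20 in knockouts and -1.75 ± 0.18 and -0.91 ± 0.20 in controls. Fbp1, the gluconeogenic fructose bisphosphatase, was lower at -1.30 ± 0.26 and -1.51 ± 0.26, and Pgm2l1, which makes glucose 1,6-bisphosphate, was higher at 0.98 ± 0.20 and 1.10 ± 0.20. The other two higher genes of both genotypes, named after their values were seen, were the sugar transporter Slc2a6 (1.80 and 1.59) and Pfkfb2 (0.90 and 0.72), a bifunctional kinase of fructose 2,6-bisphosphate. Pyruvate entry into mitochondria (14 listed, 11 tested) had 0 called in knockouts, against 18.8% of all genes. There 2 genes had an unadjusted p under 0.05, against 33.9% of all genes. In controls 2 were lower (18.2% called, below the 22.1% of all genes), pyruvate carboxylase Pcx (-0.80 ± 0.23) and the kinase Pdk3 (-0.76 ± 0.24).

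Among regulators of glycolytic genes, Myc, Txnip and Ppargc1b were lower in plus arrays of both genotypes. Of 14 listed, 11 were tested, and 5 were lower and 1 higher in knockouts (54.5% called, against 18.8% of all genes) and 3 lower and 1 higher in controls (36.4%, against 22.1%). Myc, which encodes the transcription factor named above, was lower at -1.74 ± 0.25 in knockouts (adjusted p = 0.00113) and -1.43 ± 0.25 in controls (adjusted p = 0.00272). Txnip, an inhibitor of glucose uptake, was lower at -1.37 ± 0.35 and -1.10 ± 0.35, and Ppargc1b, a coactivator of mitochondrial genes, at -1.04 ± 0.29 and -1.17 ± 0.29. Mycn was higher in controls (1.09 ± 0.24, adjusted p = 0.0088) and stood at 0.07 ± 0.24 in knockouts. Arrdc4, an arrestin related to Txnip, was lower in knockouts (-1.55 ± 0.44, adjusted p = 0.0295) and stood at -0.87 ± 0.44 in controls (0.174). Named after their values were seen, Hif1a was the 1 higher regulator in knockouts (0.86 ± 0.26, adjusted p = 0.0365) and Hif3a the fifth lower one (-1.05). Set B held the largest knockout difference of several: in sets A, B and C it was -0.34, -2.70 and -1.09 for Txnip, -0.29, -3.10 and -1.24 for Arrdc4, -0.56, -1.69 and -0.89 for Ppargc1b, and 0.48, 1.57 and 0.55 for Hif1a.

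Of hypoxia response genes outside glycolysis, Vegfa, Ero1a, Kdm3a and Plod2 were higher in plus arrays of both genotypes, and most were not called. Of 18 listed and 15 tested, 4 were higher and 0 lower in knockouts (26.7% called, against 18.8% of all genes), and 5 higher and 1 lower in controls (40.0%, against 22.1%), with medians of 0.34 and 0.50. Vegfa, the vascular growth factor, was higher at 1.65 ± 0.26 in knockouts (adjusted p = 0.00161) and 1.24 ± 0.26 in controls (adjusted p = 0.00604). The oxidase Ero1a (1.26 and 0.87), the histone demethylase Kdm3a (0.82 and 0.81) and the collagen hydroxylase Plod2 (1.29 and 1.52) followed. Ddit4, a brake on mTORC1, was higher in controls (2.09 ± 0.48, adjusted p = 0.00957), and the 1 lower gene there, named after its value was seen, was the carbonic anhydrase Car9 (-0.92). No gene of these 4 lists was called between knockouts and controls or in the interaction, where 0.0189% and 0% of all genes were. At an unadjusted p under 0.05, 3 of these 59 genes passed among minus arrays, against 2.36% of all genes. Among plus arrays 6 of the 59 passed, against 9.81% of all genes, and in the interaction 2, against 2.11%.

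Erythroid, mast cell and T and NK markers were set beside the sign as well. The summed signal of 10 erythroid genes was 4081 to 6799 in knockout plus arrays, against 9197 to 23429 in knockout minus arrays. In controls it was 5185 to 8880 in plus arrays, against 10723 to 41890 in minus arrays. A few genes carry the sum: in the control minus array of set B, Car1 had 21113, Ermap 11207 and Klf1 6622. Hba-a1, Slc4a1 and Alas2 lay below the filter. Of these, Hba-a1 was brighter in the plus array of every pair but the control pair of set C. Of 7 tested, 5 were lower in each genotype (Car1, Ermap, Klf1, Rhd and Rhag), and 1, the transferrin receptor Tfrc, was higher in knockouts. That is 85.7% called in knockouts, against 18.8% of all genes, and 71.4% in controls, against 22.1%. Mast cell and basophil genes (8 summed) gave 1123 to 6552 in knockout plus arrays, against 6341 to 8490 in knockout minus arrays, and 1607 to 3863 in control plus arrays, against 6547 to 7920 in control minus arrays. Of 4 tested, 2 were lower in knockouts (50%) and 1 in controls (25%, near the share of all genes). Among T and NK genes the 1 called gene of 2 tested (50%) was Nkg7, lower at -1.96 ± 0.24 in knockouts and -2.02 ± 0.24 in controls. It makes up most of the summed signal of its list, whose other tested gene, Cd8a, stood at 0.52 and -0.31, while Cd3e, Cd3d, Cd3g, Cd4, Cd2 and Ncr1 lay below the filter.

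Of 6 platelet genes 2 were lower in plus arrays of knockouts (33.3%, against 18.8% of all genes) and 1 in those of controls (16.7%, against 22.1%). Of 10 neutrophil genes 2 and 1 were lower (20% and 10%), and of 7 monocyte genes 1, Cd14, was higher in both (14.3% each), shares near or below those of all genes. Among 7 stem and progenitor genes, 1 was called in knockouts (14.3%) and 2 in controls (28.6%), in both directions. Cd34 was lower at -1.04 ± 0.22 in knockouts and -1.07 ± 0.22 in controls. Hlf was higher in plus arrays of controls (1.47) and stood at 0.92 in knockouts. Among 6 pan-leukocyte genes, 1 was called in knockouts (16.7%) and 2 in controls (33.3%). Ptprc was higher at 0.78 ± 0.15 and 0.49 ± 0.15, and Cd53 was higher in plus arrays of controls (1.18). Among 5 dendritic cell genes, 2 were called in knockouts (40%), Cd74 higher (1.28) and H2-Ab1 lower (-0.83), and 0 in controls.

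No marker signal was 0, and the lowest was 0.447. The part of these cells in the members' differences was not tested, and in bulk samples fewer cells of a type and less RNA per cell cannot be told apart.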

How the data were processed

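RNA of 12 samples, 3 in each of 4 groups, was measured on one-colour arrays. The authors deposited MAS5 intensity values, a linear brightness for each probe set, per the submitters' processing notes; the MAS5 version and detection calls are not given in the sources used here. The files show a 2% trimmed mean of 500 in every array, and array medians ran from 59.7 to 114. Arrays have no counting depth, and their number limits the precision.

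Of 45101 probe sets, 34958 had 1 gene symbol, 932 several and 9211 were not listed in the supplied annotation; gene numbers matched 34754 to GRCm38.p6. Signals were turned to log2(signal + 32), the brightest probe set stood for a gene, and genes whose mean was under 6.76 (the median over probe sets) were not tested. One limma 3.58.1 model (R 4.3.3, eBayes with trend) had a term for each of the 4 groups and for the naming sets, leaving 6 residual degrees of freedom, and 5.78 prior ones. Tests were two-sided, adjusted by Benjamini-Hochberg over 10583 genes in each of 5 contrasts, and called at 0.05. Differences on this scale understate those of dim genes. The probe sets of Hk3, Aldoa, Tpi1, Pgk1, Pgd and Tkt end in _x_at, a type whose probes can bind other transcripts. That of Slc2a3 ends in _s_at, and whether its probes bind other transcripts was not checked. Only the model fit was tested on simulated data, with independent noise, and not the choice of probe sets, the filter or the motif counts.

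The naming set is a block because arrays of a set deviated together from their group means (correlations of 0.41 to 0.77 in 18 pairs, against -0.64 to 0.28 in 36 pairs of other sets and groups). Every member may be named. Values of each array are given for the 5 members with the smallest p per contrast of 2 groups and the 3 of the interaction, and up to 4 genes are named per related list and contrast. Values of other members by array were added after they were seen. The members, the lists and the motifs were chosen with earlier results of these data known. Alternatives covered the added constant, level filter, scaling, probe sets, block, array weights, variance prior, beta-actin ratio and single arrays or sets left out.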

Additional observations from a re-analysis of the deposited data

How the results depend on the processing

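Across 28 alternatives the calls of Slc16a1 (both genotypes) and of Hk2, Tpi1 and Pdk1 (controls) held, and 0 members were called between genotypes. In knockouts, 9 members were called: 3 without the replicate block, 15 with array weights, 3 with the beta-actin ratio, and 3 to 13 with an array or set left out. In controls, 11 were called: 4 without the block, 6 with the beta-actin ratio, and 5 to 13. The block was used because arrays of a set deviate together. The members' median of -0.35 in knockouts was -0.54 with all probe sets averaged, -0.473 with the array of conflicting labels as a control, and -0.541 to -0.172 with arrays left out. The median of -0.32 in controls was -0.245 with no level filter, -0.516 with arrays centred on their medians, -0.423 with probe sets averaged, -0.241 with array weights, and -0.425 to -0.199 with arrays left out. Between genotypes it turned to 0.117 in plus arrays after centring and to 0.105 without set B, and ran from -0.086 to 0.182 in the interaction with arrays left out. The Pdk1 interaction ran from -0.001 without set B, where its sign turned, to 0.971 without set C. Centring moved the median of all genes in controls to -0.22 and their calls to 728 higher and 1892 lower (1119 and 1225 before), and in knockouts to 720 and 1198 (956 and 1029). All genes called numbered 298 in knockouts and 470 in controls without the block, 650 and 1519 with the beta-actin ratio, and 4008 and 4151 with array weights. They numbered 679 and 1055 without set A, 2648 and 3074 without set B, and 356 and 571 without set C.

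For other sugar genes, the 10 calls in knockouts were 6 with probe sets averaged, 1 without the block, 5 with the conflicting array as a control, 16 with weights, 1 with the beta-actin ratio and 1 to 10 with arrays left out; the 11 in controls were 2 without the block, 17 with weights, 4 with the beta-actin ratio and 2 to 14. For pyruvate entry, 0 in knockouts were 2 with weights, and 2 in controls were 0 without the filter or the block, 1 with a stricter filter, averaged probe sets or the beta-actin ratio, and 0 to 3 with arrays left out. For regulators, 6 in knockouts were 2 without the filter, 1 without the block, with the conflicting array or with the beta-actin ratio, and 1 to 6; 4 in controls were 1 without the block, 8 with weights and 1 to 6. For hypoxia genes, 4 in knockouts were 1 without the block, 10 with weights and 1 to 8, and 6 in controls were 0 without the block (8 at an unadjusted p under 0.05 with it) and 0 to 8. Fewer arrays enter when some are left out; the causes of the other changes were not tested. Probe sets at dim signals and 3 arrays per group limit what could be called.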
